A study of Mus musculus with 20 samples.

Results

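The gene set described here holds 195 of the 566 genes that the authors tabulated for mouse retina at postnatal day 2 (P2), namely those with a low level in retina lacking the rod factor Nrl and a level near wild type (WT) in the 3 other mutants. The set was read from FPKM, which is fragments scaled to transcript length and to the mapped reads of the library. A gene was included when its mean of 2 samples was at least 2 FPKM in WT, at most 0.5 of WT in Nrl-/-, and between 0.67 and 1.5 of WT in each of CrxRip/+, CrxRip/Rip and Crx-/-. It also had to be missing from the authors' table for postnatal day 21 (P21), which lists 1497 genes. In all 229 genes met the value limits. Of these, 29 were in the P21 table, 7 were dropped by symbol because they belong to groups of channel and transporter genes or are Fgf15 or Thrb, and 2 fell under both exclusions. Every mutant against WT thus chose the members, and the levels in those 4 contrasts are a description with no test.

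The study profiled whole retina of C57BL/6J mice by RNA sequencing in 5 genotypes at P2 and P21, with 20 samples in all, and each sample pooled 2 retinas. At P2 there were 2 samples each of WT, of CrxRip/+ and CrxRip/Rip, which carry 1 copy or both copies of the CrxRip allele of Crx, of Crx-/- and of Nrl-/-. Because the 2 samples of a genotype are the only replicates, and the labels do not say whether they came from separate litters, p-values measure the spread between these samples alone. The read depth behind an FPKM value is unknown. In whole retina, fewer cells of a type and less RNA per cell cannot be told apart.

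Nrl encodes a leucine zipper transcription factor of the MAF family that commits newborn photoreceptors to become rods, and without it the retina forms cone-like cells in place of rods. Crx encodes a homeobox factor needed for the maturation of both rods and cones. At P2 rods are still being born, and the retina holds dividing progenitors, newborn photoreceptors and inner retinal neurons together.

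Nrl itself was listed at 69.4 and 81.0 FPKM in the WT samples, 63.0 and 73.1 in CrxRip/+, 36.5 and 43.2 in CrxRip/Rip, 73.0 and 81.6 in Crx-/-, and 0.1 and 0.1 in Nrl-/-. Its near absence in the samples labelled Nrl-/- fits those labels. Across the table, summed FPKM ran from 4168.3 to 5777.3 per sample and was lowest in the 2 Nrl-/- samples.

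The promoters of 4 members are shown, because the genotype with the low level lacks a DNA-binding factor. Each is the RefSeq window of GRCm38.p6 from 250 bases before to 50 bases after a gene start, read 5′ to 3′ on the gene's strand. Ezh2 (chr6:47594981-47595280, minus strand) encodes the catalytic subunit of a Polycomb complex, and it stands for the abundant members with a CpG-rich start. Map2k1 (chr9:64253556-64253855, minus strand) encodes the kinase MEK1, and its window holds the TGCTGAC element. Zfp60 (chr7:27731159-27731458, plus strand) encodes a zinc finger protein and has none of the motifs searched. BC048943 (chr12:111980702-111981001, minus strand), whose current symbol is Rd3l, encodes a relative of the photoreceptor protein RD3 and has a CpG-poor start. The TATAAA match in its window is on the opposite strand and well upstream of the start. Capitals mark each match, on either strand, to TGCTGAC (part of the MAF element), GGATTA (bound by CRX and OTX2), TATAAA (the TATA box), GGGCGG (the GC box), TGACGTCA (the cAMP response element), CCAAT (the CCAAT box) or TTCAGCACC (the core of the RE1 element). None of the matches overlap in the windows shown.
Ezh2: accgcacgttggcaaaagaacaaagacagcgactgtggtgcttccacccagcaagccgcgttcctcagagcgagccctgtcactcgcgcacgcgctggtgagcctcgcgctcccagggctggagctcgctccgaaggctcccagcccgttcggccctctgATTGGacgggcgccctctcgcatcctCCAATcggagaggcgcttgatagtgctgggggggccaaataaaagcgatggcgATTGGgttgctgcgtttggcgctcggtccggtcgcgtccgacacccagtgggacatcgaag
Map2k1: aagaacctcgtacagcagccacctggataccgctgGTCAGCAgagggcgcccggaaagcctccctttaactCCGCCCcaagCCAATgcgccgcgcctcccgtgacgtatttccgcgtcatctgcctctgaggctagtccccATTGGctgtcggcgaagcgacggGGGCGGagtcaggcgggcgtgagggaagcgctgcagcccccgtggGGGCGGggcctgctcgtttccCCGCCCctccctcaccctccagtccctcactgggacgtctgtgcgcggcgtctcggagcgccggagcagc
Zfp60: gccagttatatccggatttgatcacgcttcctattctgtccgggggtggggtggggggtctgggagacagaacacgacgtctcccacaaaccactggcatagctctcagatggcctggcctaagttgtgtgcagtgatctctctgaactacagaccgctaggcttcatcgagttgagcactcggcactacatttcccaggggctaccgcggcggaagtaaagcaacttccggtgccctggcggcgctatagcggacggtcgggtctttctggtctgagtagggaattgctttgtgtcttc
BC048943: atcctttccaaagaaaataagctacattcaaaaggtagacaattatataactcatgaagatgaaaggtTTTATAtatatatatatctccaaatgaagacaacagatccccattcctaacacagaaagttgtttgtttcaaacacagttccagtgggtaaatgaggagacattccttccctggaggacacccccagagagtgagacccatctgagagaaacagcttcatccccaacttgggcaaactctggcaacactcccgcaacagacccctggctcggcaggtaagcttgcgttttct
The Ezh2 and Map2k1 windows held 31 CpG dinucleotides each, Zfp60 held 17 and BC048943 held 3.

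Over the set, 151 members had 202 promoter windows in RefSeq. The median number of CpG dinucleotides per window was 19 in members, 14 in the other rows of the P2 table, 13 in protein-coding promoters and 7 in all promoters. TGCTGAC, from the element that NRL binds, was present in 5.4% of member windows, 7.9% of windows of other rows and 4.7% of all promoters. GGATTA was present in 5.4% of member windows, 11.9% of windows of other rows and 7.1% of all promoters. The GC box GGGCGG was in 60.4% of member windows, 51.7% of other rows and 35.7% of all promoters, and CCAAT was in 47.5%, 38.3% and 37.4%. TATAAA was in 6.9%, 8.7% and 13.6% of these windows. TGACGTCA was in 3.5%, 2.6% and 1.8%, and TTCAGCACC in 1.0%, 0.5% and 0.4%. In protein-coding promoters the shares were 46.2% for GGGCGG, 38.2% for CCAAT and 12.6% for TATAAA. They were 4.3% for TGCTGAC, 6.4% for GGATTA, 2.2% for TGACGTCA and 0.4% for TTCAGCACC. These shares describe letters in a short window and say nothing about binding.

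Members spanned a wide range of levels and a narrow range of ratios. Their WT mean ran from 2.0 to 49.1 FPKM with a median of 5.15, and 95 of the 195 were under 5 FPKM while 36 were at or above 10. The Nrl-/- mean was 18.5% of WT in the lowest member and 50% in the highest, with a median of 41.1% and quartiles of 37.4% and 45.0%. Only 24 members were at or under 33% of WT. Both Nrl-/- samples lay below all 8 other samples in all 195 members, and in 58.7% of all genes in the table. The rule used this contrast, so nothing is read from that count. The separation varied widely: the higher Nrl-/- sample was 30.4% of the lowest other sample in Spice1 and 90.9% of it in Map1a, with a median over members of 55.6%.

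**Figure D1:**
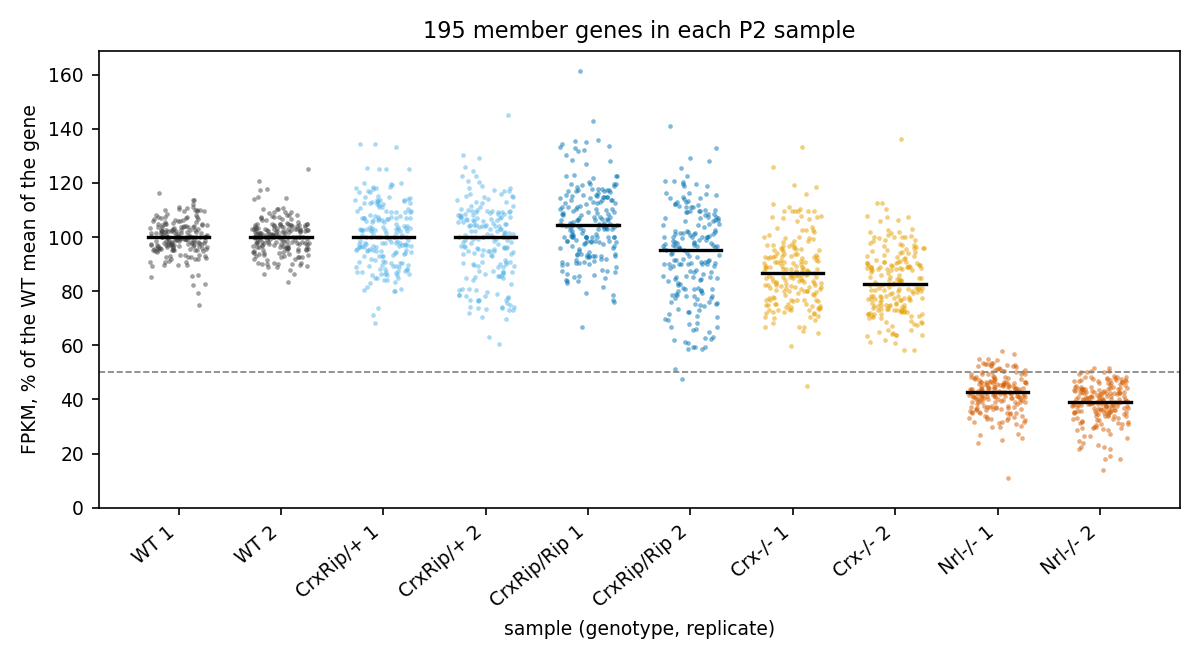
FPKM of each of the 195 members in each P2 sample (points), as a percentage of that gene's WT mean (vertical axis), with the median of each sample as a black bar and the limit of the rule for the Nrl-/- mean as a dashed line. Medians were 100 in both WT and both CrxRip/+ samples, 104.3 and 95.3 in CrxRip/Rip, 86.8 and 82.7 in Crx-/-, and 42.6 and 39.1 in Nrl-/-.

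The most abundant member was Glcci1, a gene first described as induced by glucocorticoids. Its samples read 45.5 and 52.7 FPKM in WT, 56.1 and 57.4 in CrxRip/+, 79.2 and 65.2 in CrxRip/Rip, 58.6 and 50.5 in Crx-/-, and 17.8 and 21.4 in Nrl-/-. Both CrxRip/Rip samples were the highest of the 10, and both Nrl-/- samples lay far below the rest. Ezh2, the Polycomb methyltransferase, read 46.3 and 44.8 FPKM in WT, 46.6 and 46.3 in CrxRip/+, 47.7 and 46.2 in CrxRip/Rip, 38.8 and 35.0 in Crx-/-, and 13.6 and 13.2 in Nrl-/-. The WT and CrxRip samples were almost level, Crx-/- lay below them without overlap, and Nrl-/- was at 29.4% of WT (13.4 ± 0.283 against 45.6 ± 1.06 FPKM, SD, n = 2 each). Ephb2, a receptor tyrosine kinase for ephrins that guides axons, read 37.6 and 33.6 FPKM in WT, 30.2 and 26.4 in CrxRip/+, 31.2 and 24.7 in CrxRip/Rip, 30.0 and 26.1 in Crx-/-, and 11.9 and 11.0 in Nrl-/-. All 3 Crx mutants lay below both WT samples, and Nrl-/- lay well below them all.

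BC048943 read 30.9 and 30.8 FPKM in WT, 34.7 and 32.1 in CrxRip/+, 34.9 and 32.7 in CrxRip/Rip, 33.8 and 29.2 in Crx-/-, and 12.7 and 11.6 in Nrl-/-. Its relative Rd3, which restrains guanylate cyclase in photoreceptors, read 4.8 and 5.9 FPKM in WT, 5.0 and 5.4 in CrxRip/+, 4.1 and 4.3 in CrxRip/Rip, 3.2 and 4.0 in Crx-/-, and 1.8 and 2.7 in Nrl-/-. BC048943 was thus close to WT in the Crx genotypes, while Rd3 lay below both WT samples in CrxRip/Rip and Crx-/-. The other members among the 10 highest were Coa3, an assembly factor of cytochrome c oxidase, the lipid-binding Sec14l1, the rhomboid family gene Rhbdl3, the phosphatidic acid enzyme Agpat1, the arginine methyltransferase Prmt2, and Pnmal2. Their WT means ran from 19.6 FPKM (Pnmal2) to 30.3 FPKM (Coa3), and their Nrl-/- means were 36.9% (Rhbdl3) to 45.2% (Prmt2) of WT. The 2 Nrl-/- samples differed most among these in Coa3, at 15.5 and 10.9 FPKM, and Prmt2, at 15.1 and 10.7 FPKM.

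The lowest ratio belonged to Ikbip, which encodes a protein that interacts with an IκB kinase. It read 2.7 and 2.7 FPKM in WT, 3.0 and 3.1 in CrxRip/+, 3.2 and 2.3 in CrxRip/Rip, 1.9 and 1.9 in Crx-/-, and 0.3 and 0.7 in Nrl-/-. The ratio of 18.5% rests on values that the authors rounded to 1 decimal. Spice1, which is needed for centriole duplication, read 5.8 and 5.4 FPKM in WT, between 4.6 and 5.8 in the 6 samples of the Crx genotypes, and 1.4 and 1.3 in Nrl-/-, and its Nrl-/- mean was 24.1% of WT. The other low ratios were those of Kctd11, an adaptor of a ubiquitin ligase, at 21.4%, Zfp94 at 24.2%, the sulfotransferase Gal3st4 at 24.2%, the matrix proteoglycan Prelp at 27.4%, the mitochondrial rRNA methyltransferase Tfb1m at 27.7%, Gm5918 at 27.8%, Ezh2 at 29.4% and 4931414P19Rik at 28.9%. Most of these had low levels, with WT means from 2.1 FPKM (Kctd11) to 11.3 FPKM (Prelp), Ezh2 apart. At the other edge, 5 members were tied at 50% of WT, the limit itself, namely Galnt11, Fn3krp, Iqcc, Cyb561d2 and Dnase2a. Gtpbp5 at 50.8%, Chchd5 at 51.0% and 3110052M02Rik at 51.1% met the other value limits and fell just outside.

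**Figure D2:**
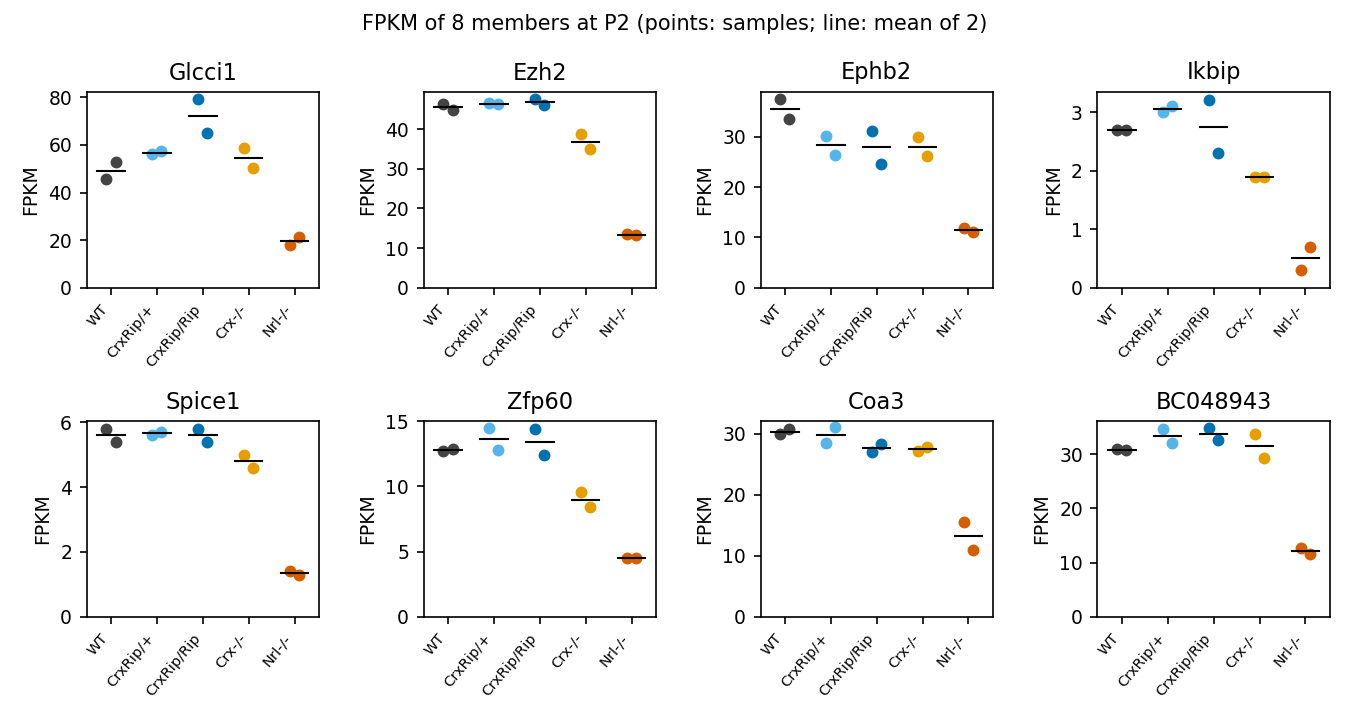
FPKM (vertical axes, each from 0) of 8 members in the 10 P2 samples by genotype, with points for samples and a line for the mean of 2. In each panel both Nrl-/- samples lie below all others, from 13.6 and 13.2 FPKM for Ezh2 to 0.3 and 0.7 FPKM for Ikbip.

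The level of the Nrl-/- columns as a whole has to be set beside these values. Over all 566 genes the Nrl-/- mean had a median of 46.1% of WT, close to the 41.1% of the members. There were 164 genes under 40% of WT, 160 from 40% to 50%, 32 above 50% and up to 60%, 112 between 60% and 150%, and 98 at or above 150%. The table therefore has a peak around 40% to 45%, and a broad tail of genes that were level or higher in Nrl-/-. The members lie in that peak and on both sides of it, up to the limit of 50%. Among the 294 genes that were within the limits for WT and the 3 Crx genotypes, 229 were at or under 50% of WT, 12 lay between 60% and 150%, and 33 were at or above 150%, with a median of 42.9%. The table holds only genes that passed the authors' limits in some comparison, so a gene level in all genotypes could not enter it. The position of such genes was not analysed here. Those limits, with an absolute log2 fold change of at least 1, also bear on where the peak lies. The peak is therefore not read as the level of the Nrl-/- libraries. The 32 genes that met the authors' limits in none of their 4 comparisons with Nrl-/- had a median of 81.4% of WT. That choice itself keeps out genes far from WT in Nrl-/-, so nothing is read from this median.

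**Figure D3:**
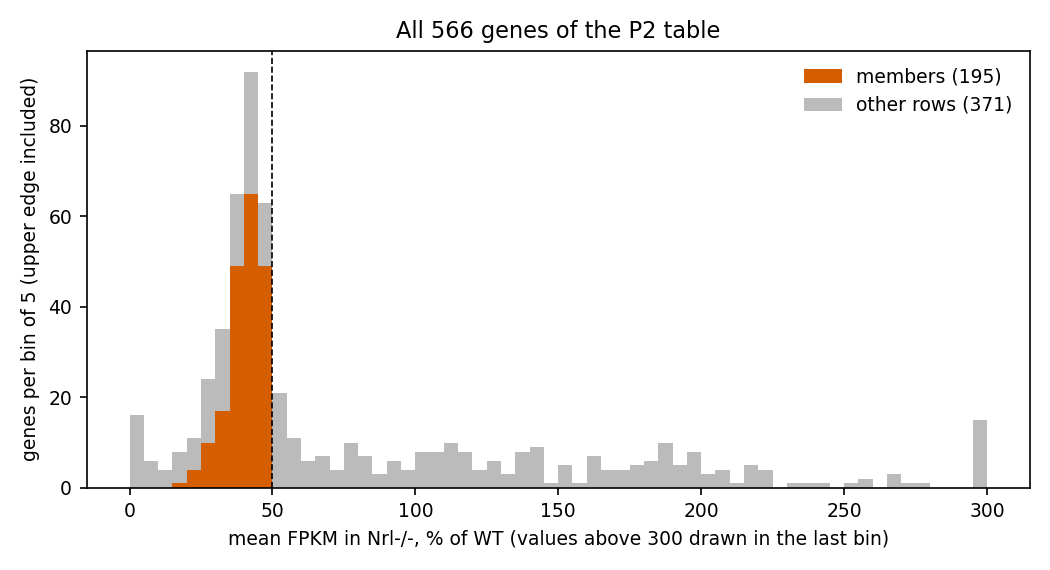
Number of genes (vertical axis) by mean FPKM in Nrl-/- as a percentage of WT (horizontal axis, bins of 5), for members in orange and the other 371 rows of the P2 table in grey, stacked, with the limit of the rule dashed. Members lie in the main peak and on both sides of it, up to the dashed limit. The median of the table is 46.1%, and 98 genes lie at or above 150%.

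Summed over the members, FPKM was 1383.0 and 1390.5 in WT, 1396.6 and 1355.1 in CrxRip/+, 1477.9 and 1288.1 in CrxRip/Rip, 1243.7 and 1166.2 in Crx-/-, and 584.9 and 535.7 in Nrl-/-. Summed over the other 371 genes it was 4066.5 and 4386.8 in WT and 3715.5 and 3632.6 in Nrl-/-. The rule sorted the genes by this contrast, so nothing is read from the difference between these sums. The fold changes in the authors' deposited table were shifted against the ratio of FPKM by 0.175 on the log2 scale for Nrl-/- against WT (median over 136 genes, SD 0.029), and by -0.01, -0.014 and 0.021 for CrxRip/+, CrxRip/Rip and Crx-/-. With that shift the median member stood at 46.4% of WT and 136 of 195 were at or under 50%. Scaled to the 32 genes without a call against Nrl-/-, a reference picked by that same contrast, the median member stood at 55.3% and 47 were at or under 50%. Scaled by the median of ratios over the whole table, which sets most of these selected genes to be unchanged, the median member stood at 85.6%, 2 were at or under 50%, and 12 were no longer below WT.

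The size of the set followed the scaling closely. With the Nrl-/- columns divided by 0.9 the rule found 146 genes, by 0.8 it found 81, by 0.7 it found 32 and by 0.6 it found 15. The part of a library-wide level difference in the members' low values was not tested, since the genes that would show it were not analysed here.

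**Figure D4:**
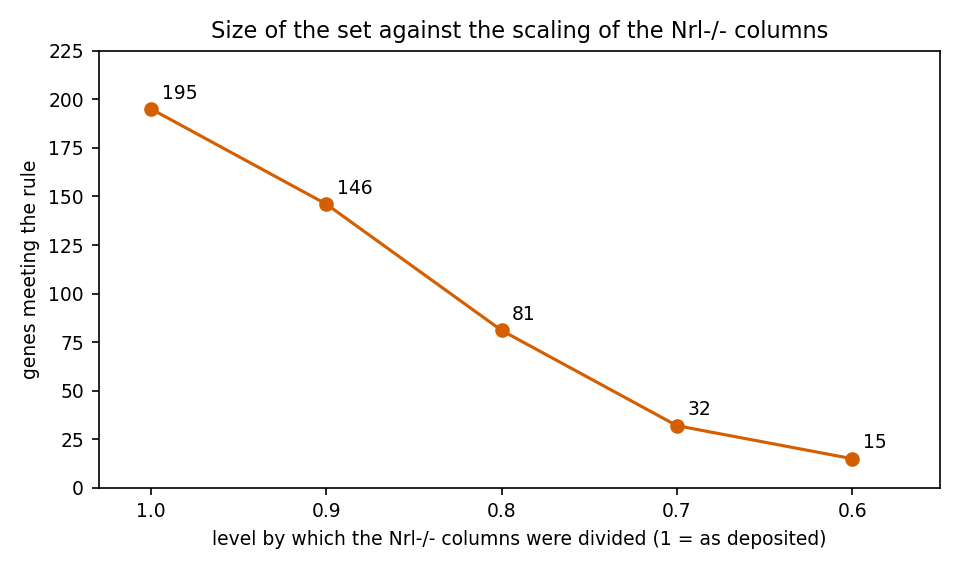
Number of genes that meet the rule (vertical axis, from 0) when the 2 Nrl-/- columns are divided by a common level (horizontal axis, 1 as deposited). The count goes from 195 as deposited to 15 at a level of 0.6.

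In the authors' deposited table, 151 of the 195 members passed an adjusted p under 0.05 and a log2 fold change of -1 or lower for Nrl-/- against WT, where 46.6% of the whole table did so in that direction and 60.4% in either direction. The contrast is that of the rule. Against the other genotypes, and counting either direction, the authors' limits were met by 142 members for CrxRip/+ against Nrl-/- (59.7% of the table), 135 for CrxRip/Rip (63.8%) and 77 for Crx-/- (36.9%). No member met them in a comparison without Nrl-/-. The backgrounds there were 7.6% for CrxRip/+ against WT, 20.3% for CrxRip/Rip against WT and 12.7% for Crx-/- against WT. Among the mutants they were 9.19% for CrxRip/Rip against CrxRip/+, 12% for CrxRip/+ against Crx-/- and 20.8% for CrxRip/Rip against Crx-/-. The rule's limits on those genotypes leave little room for a log2 fold change of 1.

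The members were grouped by what the genes are known to do, in groups drawn up after the values were seen. Of the 195, 163 could be placed and 32 could not. The other rows of the table were not grouped, so the groups order the description and show nothing particular to the members. The largest group was 24 genes of mitochondria, with a median WT level of 4.85 FPKM and a median Nrl-/- level of 42.1% of WT. It held the cytochrome c oxidase assembly factors Coa3 and Coa6, the translation genes Mrrf, Tsfm and Taco1, the DNA maintenance gene Mgme1, the ubiquinone enzyme Coq3, the deacylase family gene Sirt4 and the protease Oma1. Coa3 read 29.9 and 30.7 FPKM in WT, 28.5 and 31.0 in CrxRip/+, 27.0 and 28.3 in CrxRip/Rip, 27.1 and 27.8 in Crx-/-, and 15.5 and 10.9 in Nrl-/-. The 8 samples other than Nrl-/- stood close together, and the 2 Nrl-/- samples lay apart both from them and from each other.

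Zinc finger genes with Zfp symbols were 14 of the members, or 7.2%, against 11 of the other 371 rows, or 3.0%. Of those 11 other rows, 6 were also at or under 50% of WT in Nrl-/- and 2 were at or above 150%. With Zkscan7 the 14 members formed a group of 15 with low WT levels, a median of 3.55 FPKM and a highest value of 12.8 in Zfp60. Their median was 43.8% of WT in Nrl-/-, 107% in CrxRip/+, 108% in CrxRip/Rip and 77.5% in Crx-/-. Zfp60 read 12.7 and 12.9 FPKM in WT, 14.5 and 12.8 in CrxRip/+, 14.4 and 12.4 in CrxRip/Rip, 9.6 and 8.4 in Crx-/-, and 4.5 and 4.5 in Nrl-/-. It thus had 3 levels, with the WT and CrxRip samples together, Crx-/- below and Nrl-/- lowest. Many zinc finger genes have near-identical copies in clusters, and how the authors' counting divided shared reads is not given in the sources used here, so these values are uncertain.

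Other regulators of transcription and chromatin were 18 members, with a median of 39.2% of WT in Nrl-/-. Besides Ezh2 and Prmt2 they included the Scratch family repressors Scrt1 and Scrt2, the oxidative stress factor Nfe2l2, the Iroquois gene Irx6, the interferon factor Irf2, the coactivator Mkl1, the repressor Bcl11a and the Polycomb-linked corepressor Bcorl1. Nr4a2, an immediate early nuclear receptor, read 3.6 and 4.0 FPKM in WT, 3.2 and 2.8 in CrxRip/+, 4.2 and 2.4 in CrxRip/Rip, 2.9 and 2.6 in Crx-/-, and 1.2 and 1.7 in Nrl-/-. All 4 immediate early genes in the table, the other three being Btg2, Egr1 and Jun, were at or under 50% of WT in Nrl-/-, as were 324 of the 566 genes. Pou4f3, a POU factor of retinal ganglion cells, read 2.2 and 1.8 FPKM in WT and 0.7 and 0.8 in Nrl-/-, and between 1.5 and 2.2 in the Crx genotypes.

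Genes of the cilium and centrosome were 8 members with a median of 37.8% of WT. They included Ttc8, Mkks and Bbs10, which act in the Bardet-Biedl protein complexes of the cilium, Ttc21b of the intraflagellar transport machinery, and Cep41, Cep57l1, Fam161b and Spice1. Ttc8 read 12.3 and 11.7 FPKM in WT, 12.1 and 13.1 in CrxRip/+, 10.3 and 10.8 in CrxRip/Rip, 10.6 and 11.0 in Crx-/-, and 5.3 and 5.7 in Nrl-/-. Its samples of CrxRip/Rip and Crx-/- lay slightly below WT, and those of Nrl-/- lay well below.

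Lipid, sterol and peroxisome genes were 13 members with a median of 41.6% of WT. Agpat1, which makes phosphatidic acid, read 27.7 and 29.6 FPKM in WT and 12.2 and 10.4 in Nrl-/-. Dhcr7, which makes the last step to cholesterol, read 16.0 and 16.0 FPKM in WT and 7.1 and 5.9 in Nrl-/-. In both genes the samples of the Crx genotypes lay between those of WT and Nrl-/-, with 1 CrxRip/Rip sample of Agpat1 above WT at 30.5 FPKM.

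The groups for secretion and autophagy (12 members), glycosylation and lysosome (10), RNA processing and translation (9), protein turnover (9), metabolism (8) and DNA repair (6) had medians from 40% to 43.4% of WT. Signalling genes were 12 members with a median of 38.9%. Map2k1 read 16.9 and 16.0 FPKM in WT, between 14.0 and 17.1 in the Crx genotypes, and 6.8 and 5.6 in Nrl-/-. All group medians lay between 37.8% and 43.8% of WT, and the limit of the rule keeps them close together.

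Members with 3 or more sharing a symbol stem, besides the zinc finger genes, were the Tmem genes (4), the Fam genes (3) and the St genes (3). Among the St genes, St6galnac2 and St6galnac4 are sialyltransferases and St14 is a membrane protease, so that stem is not a family. St14 was at 29.8% of WT in Nrl-/-, St6galnac2 at 49.3% and St6galnac4 at 43.2%.

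Secreted and surface genes were 8 members with a median of 42.7%. Ndp, whose product norrin is a ligand for retinal vessel growth, read 2.7 and 2.7 FPKM in WT, between 2.0 and 3.1 in the Crx genotypes, and 1.3 and 1.1 in Nrl-/-. Prelp read 11.5 and 11.1 FPKM in WT and 3.1 and 3.1 in Nrl-/-, with values from 7.9 to 11.3 in the Crx genotypes.

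Genes of neuronal membranes, synapses and the cytoskeleton were 9 members with a median of 43.7% of WT in Nrl-/-, 83.1% in CrxRip/+, 84.5% in CrxRip/Rip and 89.3% in Crx-/-. Map1a, a microtubule protein of neurons, read 8.8 and 8.4 FPKM in WT, 7.4 and 5.2 in CrxRip/+, 8.0 and 4.4 in CrxRip/Rip, 6.2 and 5.9 in Crx-/-, and 3.5 and 4.0 in Nrl-/-. The 2 CrxRip/Rip samples differed nearly as much as CrxRip/Rip sample 1 did from Nrl-/-, and CrxRip/Rip sample 2 was close to the higher Nrl-/- sample. Scrt1, a neuronal repressor, behaved alike, with 9.5 and 4.5 FPKM in CrxRip/Rip and 3.9 and 3.6 in Nrl-/-. Over the set, CrxRip/Rip sample 2 lay below both WT samples in 94 members and CrxRip/Rip sample 1 in 40, against 50.9% and 40.8% of all genes. Among the 18 other regulators these counts were 11 and 1.

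No member came from the lists of rod, cone, shared photoreceptor, bipolar, horizontal, amacrine, Müller glia, astrocyte, microglia, vascular or progenitor genes. The rule largely fixes this, since it leaves out genes in the P21 table, genes outside the limits in a Crx mutant, and Fgf15 by name. Of 27 retinal ganglion cell genes 2 were in the table and both were members, Pou4f3 and Nrn1, a neuritin that promotes neurite growth. Their summed level was 7.3 and 7.3 FPKM in WT, 7.5 and 8.8 in CrxRip/+, 8.3 and 7.6 in CrxRip/Rip, 7.0 and 6.2 in Crx-/-, and 3.2 and 3.1 in Nrl-/-. Beside them, the 8 rod genes in the table summed to 121.9 and 153.4 FPKM in WT and 28.9 and 30.0 in Nrl-/-, and 7 of them were at or under 50% of WT, as were 324 of all 566 genes. The 11 tabulated genes of the cone list summed to 403.7 and 449.5 FPKM in WT and 537.3 and 535.5 in Nrl-/-. Of these, 1 was at or under 50% of WT, namely Kcnv2, which is not confined to cones. Only 1 of the 46 progenitor and cell cycle genes, Fgf15, was in the table, at 45.1 and 34.8 FPKM in WT and 16.9 and 15.5 in Nrl-/-. The part of cell composition in the members' values was not tested.

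Members and the other rows had alike gene models. The median transcript length was 2694 bases in members and 2731 in other rows, the median transcript GC content was 52.9% and 52.4%, and the median number of exons was 6 in both. Members lay on all autosomes and on X, with 19 on chromosome 7, 18 on chromosome 11 and 17 on chromosome 2. The other rows had 39, 31 and 31 on these chromosomes. Chromosome 14, which carries Nrl, had 7 members and 20 other rows. Emc9 was the nearest member to Nrl, at 56.5 kb, and 4931414P19Rik lay at 912.9 kb. Whether their levels relate to the altered locus was not tested. Emc9 read 2.8 and 2.9 FPKM in WT and 1.5 and 1.1 in Nrl-/-, at 45.6% of WT.

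The 29 genes within the value limits that were left out because the P21 table lists them had varied levels there. At P21 their Nrl-/- mean was at or under 0.5 of WT in 5, at or above 2 times WT in 4, and between these in 20.

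Among the Crx genotypes the members differed in a further way that the rule bounds but does not fix. The median member was at 100% of WT in CrxRip/+, 98.6% in CrxRip/Rip and 84.4% in Crx-/-. Both Crx-/- samples were below both WT samples in 131 members and above both in 4, against 50.9% and 23.3% of the table. That contrast is part of the rule, whose limits also keep out the genes with the largest differences. A low Crx-/- level was not particular to the members. In the 129 other rows with Nrl-/- at or under 0.5 of WT, the median in Crx-/- was 70.5% of WT. In the 98 other rows with Nrl-/- at or above 1.5 of WT it was 131%. Those rows were not all within the rule's limits for the Crx genotypes, so the sizes of these medians are not compared.

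The comparisons of the CrxRip genotypes with Crx-/- and with each other were tested with limma on log2(FPKM + 1) over all 566 genes. A difference on this scale understates the change of genes with low FPKM. The rule had bounded the mean of each of these genotypes against WT, so the values tested also chose the members. It limits the size of the members' differences and not of those in the rest of the table. The p-values take no account of this selection, so the calls of members are a description. Shares of the table are given beside them, and no likeness or difference is read from the pair. In CrxRip/+ against Crx-/-, 32 members were higher in CrxRip/+ and none was lower at a Benjamini-Hochberg adjusted p under 0.05, where 16.1% of the table was higher and 12.5% lower. At an unadjusted p under 0.05 there were 62 members in either direction. The share of the table at that unadjusted limit was not computed for any comparison. The median difference was 0.17 on the log2 scale in members and 0.09 in the table. The calls were 16.4% of the members. They included 8 of the 15 zinc finger genes and 6 of the 24 mitochondrial genes, in the groups drawn up after the values were seen.

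By p, the leading genes were Znrd1as, Nfe2l2, Zfp60, Zfp874b and 1600002K03Rik. Nfe2l2, which drives the antioxidant response, read 5.2 and 5.3 FPKM in CrxRip/+ and 3.2 and 3.5 in Crx-/-, a log2 difference of 0.52 (SE 0.103, limma adjusted p = 0.00829). Zfp60 differed by 0.55 (SE 0.109, limma adjusted p = 0.00869) and Zfp874b by 0.46 (SE 0.1, limma adjusted p = 0.0127). In each of these genes both CrxRip/+ samples lay above both Crx-/- samples. Znrd1as, at 4.2 and 4.1 FPKM in CrxRip/+ and 2.9 and 3.0 in Crx-/-, is an antisense gene, and whether the counting used strand is not given in the sources used here, so its reads may come in part from its partner. 1600002K03Rik, whose current symbol is Fam174c, read 9.7 and 9.0 FPKM in CrxRip/+ and 6.9 and 5.5 in Crx-/-.

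CrxRip/Rip against Crx-/- gave 37 members higher in CrxRip/Rip and 2 lower, where 18.2% of the table was higher and 23.1% lower. At an unadjusted p under 0.05 there were 62. The members called higher were 19% of the set, and the median difference was 0.17 in members and 0.06 in the table. The rule bounds both genotypes here too, so these values are not compared. Cpne1, a copine that binds membranes when calcium is present, read 15.8 and 13.8 FPKM in CrxRip/Rip and 10.1 and 9.1 in Crx-/-, a log2 difference of 0.57 (SE 0.104, limma adjusted p = 0.00341). Fv1, a retrovirus restriction gene, read 6.6 and 7.1 FPKM in CrxRip/Rip and 4.2 and 3.8 in Crx-/-, a difference of 0.65 (SE 0.124, limma adjusted p = 0.00426). Zfp661, Fkbp14, a folding enzyme of the endoplasmic reticulum, and Zfp60 followed, with differences of 0.43, 0.47 and 0.53. All 5 had both CrxRip/Rip samples above both Crx-/- samples.

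The 2 members lower in CrxRip/Rip than in Crx-/- were St6galnac2, at 3.2 and 3.6 against 4.6 and 4.7 FPKM, and Pnmal2, at 16.9 and 12.2 against 20.9 and 21.6 FPKM. Their log2 differences were -0.36 (limma adjusted p = 0.00955) and -0.53 (limma adjusted p = 0.0226). Against CrxRip/+, CrxRip/Rip differed in 1 member, St6galnac2, which was lower by -0.40 (limma adjusted p = 0.0132), and no member was higher. There 2.83% of the table was higher and 11.3% lower, and 6 members passed an unadjusted p under 0.05.

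**Figure D5:**
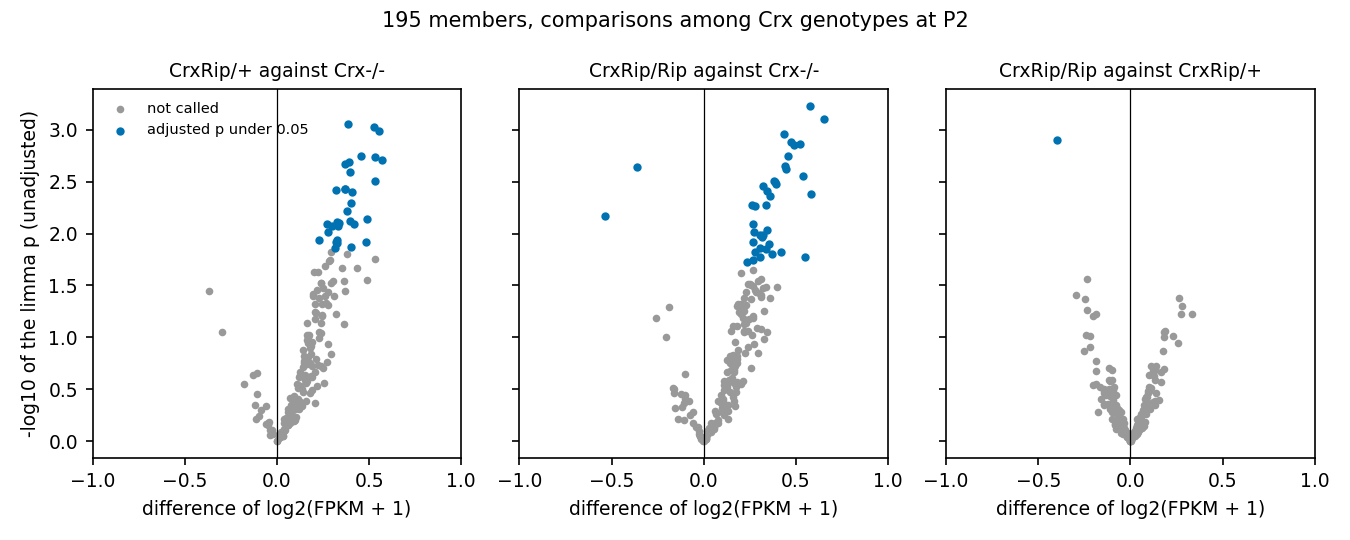
Difference of log2(FPKM + 1) (horizontal axis) and the negative log10 of the unadjusted limma p (vertical axis) for the 195 members in 3 comparisons among Crx genotypes, with members at an adjusted p under 0.05 in blue. In CrxRip/+ against Crx-/- there are 32 called members, all to the right, in CrxRip/Rip against Crx-/- 37 to the right and 2 to the left, and in CrxRip/Rip against CrxRip/+ 1 to the left.

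The comparisons with Crx-/- use the same Crx-/- samples, and 24 members were higher in both, which is 75% of the CrxRip/+ list and 64.9% of the CrxRip/Rip list. The share of all genes higher in both was not computed, so nothing is read from this overlap. Without a library, or scaled by the median of ratios, the counts of members called higher were smaller in all cases but 1, while some counts of members called lower were larger. The members lower in CrxRip/Rip than in Crx-/- numbered 5 without CrxRip/Rip replicate 1, 1 without replicate 2, 1 without Crx-/- replicate 1 and 0 without replicate 2. Leaving out a sample of CrxRip/+ or Crx-/- gave 3 to 8 members higher in CrxRip/+ (3 without CrxRip/+ replicate 1, 8 without replicate 2, 8 without Crx-/- replicate 1, 6 without replicate 2). For CrxRip/Rip the counts were 12 without CrxRip/Rip replicate 1, 48 without replicate 2, 21 without Crx-/- replicate 1 and 10 without replicate 2. Scaled by the median of ratios, 6 members were higher in CrxRip/+ and 20 in CrxRip/Rip, and with only the 2 genotypes in the fit the counts were 26 and 2. Both CrxRip/+ samples lay above both Crx-/- samples in 117 members (41.7% of the table) and below both in 4 (26.5% of the table). For CrxRip/Rip these counts were 108 (37.1%) and 8 (34.8%). No called member changed sign under these alternatives. The share of the table called under each alternative is not given here, so how the counts of called members moved is not compared with the table.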

How the data were processed

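RNA from whole retina was sequenced in 10 P2 samples of 5 genotypes, grouped by the titles in the labels. Libraries were directional, per the labels' protocols. Expression is in FPKM per the file headers, with 1 decimal kept. For pairs of genotypes the authors deposited adjusted p-values, and log2 fold changes were deposited beside them. DESeq is named in the submitters' processing notes, with no version. Aligner, counter, build and annotation: not given in the sources used here. Every row of the table had passed an adjusted p under 0.05 and an absolute log2 fold change of at least 1 in some comparison by the authors. The share of false calls among rows selected in this way is not known.

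The depth per sample is unknown, so no counting interval was computed. limma (3.58.1, R 4.3.3) was fitted to log2(FPKM + 1) of the 10 samples with 1 term per genotype, a variance trend and empirical Bayes moderation (5 residual degrees of freedom plus 2.95 from moderation). The tests were two-sided, with Benjamini-Hochberg adjustment over the 566 genes within each of 3 comparisons. The fit was tested on simulated data. Of the members, 194 matched a RefSeq gene, and 15 have a newer symbol. Promoters were matched by symbol in the RefSeq windows of GRCm38.p6.

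Members and gene lists were chosen with earlier results of these data known. Named genes are the members with the 10 highest WT means, the 10 lowest ratios of Nrl-/- to WT, list members, up to 5 called genes per comparison, the 3 genes nearest the limit on either side (5 members tied at it), and symbol stems with at least 3 members. Examples of the functional groups, Emc9, Rd3, Kcnv2, Cyb561d2 and Dnase2a were chosen after their values were seen. Lists not named in the text (pigment epithelium, lens, erythrocyte, matrix, synaptic, ribosomal and stress genes) held no member. Axon guidance, cytoskeleton and chromatin lists held 1 each, Ephb2, Map1a and Bcorl1. Alternatives were other scalings, limits, pseudocounts and filters, a replicate block, and each replicate left out.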

Additional observations from a re-analysis of the deposited data

How the results depend on the processing

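The number of genes meeting the rule was 2 after scaling by the median of ratios (1 of them a member), 81 with an upper limit of 0.4 for Nrl-/-, 100 with a WT minimum of 5 FPKM and 105 with the other genotypes held between 0.8 and 1.2 of WT. Scalings chosen after seeing the data gave 12 genes when scaled by the rows without a call against Nrl-/- (11 of them members), and 81, 32 and 15 with the Nrl-/- columns divided by 0.8, 0.7 and 0.6. That scaling by rows also moved the Crx genotypes, with factors of 1.262 and 1.275 for WT and 0.728 and 0.761 for CrxRip/Rip. It left 47 members at or under 50% of WT in Nrl-/-, so other limits of the rule also lowered the count of 12. Leaving out a WT or Nrl-/- replicate gave 174 to 197 genes. In limma, scaling by the median of ratios gave 6 members higher and 1 lower for CrxRip/+ against Crx-/-, 20 higher for CrxRip/Rip against Crx-/-, and 0 lower for CrxRip/Rip against CrxRip/+. It turned the table for Nrl-/- against WT from 107 genes higher and 366 lower to 188 higher and 96 lower. With only the 2 genotypes compared in the fit, 1 member was lower in CrxRip/+ than in Crx-/-, 2 were higher and 0 lower in CrxRip/Rip than in Crx-/-, and 0 were lower in CrxRip/Rip than in CrxRip/+. Leaving out each replicate gave 3 to 8 members higher in CrxRip/+ than in Crx-/-, 10 to 48 higher and 0 to 5 lower in CrxRip/Rip than in Crx-/-, and 0 to 1 higher and 0 to 2 lower in CrxRip/Rip than in CrxRip/+. The counts of called members under these alternatives were not set beside the share of the table, and the cause of these shifts was not tested. Deviations of same-numbered samples from their genotype means correlated between -0.24 and 0.33 over 10 pairs of genotypes. No reference for unpaired samples was set beside this range, so it does not settle whether the numbers pair the samples. With the replicate as a block the calls were 32 higher for CrxRip/+ against Crx-/-, 38 higher and 2 lower for CrxRip/Rip against Crx-/-, 1 lower for CrxRip/Rip against CrxRip/+, and 111 higher and 370 lower genes for Nrl-/- against WT. A pseudocount of 0.1 and a minimum mean of 2 FPKM moved no count of calls by more than 1.5 times. Values under 1 FPKM are limited by the rounding to 1 decimal.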
